A study of Mus musculus with 9 samples.

Results

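The annexins and their S100 partners were followed at the RNA level in B.END3 cells, labelled as brain microvessel endothelial cells of the mouse, without and with photodynamic treatment. The 10 genes were chosen by name from the 54532 genes listed: 7 annexins (Anxa1 to Anxa7) and 3 S100 genes (S100a6, S100a10 and S100a11). Annexins are cytosolic proteins that bind phosphatidylserine and other acidic phospholipids when calcium rises. When a plasma membrane is torn, calcium enters, annexins gather at the rim of the lesion, and they help to cap or fold the edge until it reseals. S100 proteins are small calcium-binding dimers, several of which bind the amino-terminal tail of an annexin and so link annexin molecules, and with them neighbouring membranes, into a larger complex. Light acting on a membrane-bound photosensitizer oxidizes lipids and is a known way of damaging membranes.

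The labels give 3 libraries in each of 3 groups. Ctrl was untreated. Ep1 and Ep2 were incubated with 300 µg/mL porfimer sodium, a porphyrin photosensitizer, for 90 min and then lit at 635 nm and 100 mW/cm2, with a light dose of 10 J/cm2 in Ep1 and 20 J/cm2 in Ep2. All groups were the same immortalized line, labelled C57BL/6, grown to a monolayer. None of the 9 libraries received the drug alone or the light alone, so the effects of sensitizer and light cannot be told apart in comparisons with Ctrl. Light dose is the only difference the labels give between Ep2 and Ep1, and at equal irradiance it comes with a difference in exposure time. Whether the groups were treated and sequenced together was not given in the sources used here. The interval between light and lysis was not given in the sources used here, and nothing there says that the 3 libraries of a group came from separate cultures, so the p-values measure the spread between libraries, which may be technical.

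Levels are given as FPKM, fragments scaled to gene length and library size, and the libraries held between 16240688 and 19509225 fragments on genes. The labelled cell type was checked against marker genes. Of 15 endothelial markers, 9 were under 1 FPKM in every library and 2 of these, Erg and Emcn, were listed at 0 throughout. Pecam1 did not exceed 0.242 FPKM and Cdh5 did not exceed 1.09, whereas Flt1 lay between 6.66 and 11.7 FPKM. Of 10 epithelial markers, 5 were under 1 FPKM in every library. Krt7 and Esrp1 among them were at 0, and Cdh1, Cldn4 and Cldn7 did not exceed 0.103, 0.177 and 0.108 FPKM. Epcam and Grhl2 did not exceed 2.03 and 2.02 FPKM, but the keratin genes Krt8, Krt18 and Krt19 reached 714, 332 and 324 FPKM. The near absence of most endothelial markers beside abundant keratins goes against the labelled cell type, so the cells are called by the name of the line here. The other epithelial markers were low as well, so the keratins do not give the cells another name. The summed endothelial markers ranged from 161 to 168 FPKM in Ctrl, from 157 to 184 in Ep1 and from 207 to 232 in Ep2. Most of this sum was Slc2a1, with a mean of 93.2 FPKM in Ctrl and 134 in Ep2, and Ly6c1, with 59.4 and 68.9. Of the 5 endothelial markers tested, Slc2a1 and Flt1 (6.90 and 10.9) were called higher in Ep2 than in Ctrl and 0 were called lower. These calls are from the limma model described below. Ly6c1, Eng (1.32 and 1.13) and Egfl7 (2.09 and 1.65) were not called, so the sum does not describe the endothelial markers in general. The summed epithelial markers ranged from 1030 to 1082, from 938 to 1043 and from 1157 to 1374 FPKM. Most of this sum was Krt8, Krt18 and Krt19, so it does not describe the epithelial markers in general. Of the 5 tested, 4 were called higher in Ep2 than in Ctrl and 0 lower. Among the 4 were Krt19 (means of 174 and 283 FPKM in Ctrl and Ep2) and Krt18 (237 and 307). Epcam (0.812 and 1.77) and Grhl2 (1.18 and 1.95) were also called, at low levels. Krt8, the most abundant, was not called (640 and 661). Both sums were thus higher in Ep2, the group in which the annexins rose below, and their part in that result was not tested. Fibroblast markers (4 of 6 under 1 FPKM in every library), mural cell markers (5 of 6) and leukocyte and microglia markers (6 of 6) summed to at most 49.6, 4.45 and 0.275 FPKM.

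The members lie on 7 chromosomes, and the listed positions are those of the GRCm38 build. The 3 S100 genes share chromosome 3 with Anxa5. S100a11 (chr3:93520488-93526287, + strand) and S100a10 (chr3:93555080-93564643, + strand) are neighbours with 28792 bases between them, whereas S100a6 (chr3:90612882-90624181, + strand) lies in the other S100 cluster of that chromosome, of which S100a9 is 2824766 bases from S100a11. The annexins are scattered, with Anxa6 at chr11:54979108-55033445 (- strand), Anxa3 at chr5:96793339-96845966 (+ strand), Anxa4 at chr6:86736840-86793584 (- strand), Anxa7 at chr14:20455260-20480133 (- strand), Anxa2 at chr9:69453620-69491795 (+ strand), Anxa1 at chr19:20373428-20390944 (- strand) and Anxa5 at chr3:36448923-36475894 (- strand). Anxa2 overlaps Gm16144 on the opposite strand, which did not exceed 1.81 FPKM, and Anxa4 overlaps Gm44036, which did not exceed 0.481. Whether fragments were counted by strand was not given in the sources used here. The pseudogene S100a11-ps was listed at 0 FPKM in all 9 libraries.

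Several annexins rose together in Ep2, as described below, so the 250 bases before each RefSeq transcription start (GRCm38.p6) are shown and were searched for short motifs on both strands. Windows were found for 7 of the 10 members, 9 windows in all, and the members without an entry are Anxa3, Anxa6 and S100a10. The motifs searched were the GC box GGGCGG, the CCAAT box CCAAT, the TATA box TATAAA, the AP-1 site TGANTCA, bound by the stress-activated FOS and JUN proteins, and the core of the antioxidant response element, TGACNNNGC, bound by NRF2. The 3 windows printed are those that hold an AP-1 site or an antioxidant response element core, with matched letters in capitals and the start site following the last base. Anxa2 and S100a11 were abundant and Anxa4 was not, and the listed starts of Anxa2 and S100a11 lie inside their windows, before the RefSeq start. Of the windows not printed, those of S100a6 and Anxa5 and an Anxa7 window also hold the listed start. The Anxa1 window and another Anxa4 window lie wholly within the listed gene, so their motifs are upstream of the RefSeq start only.
Anxa2 (chr9:69453433-69453682, + strand): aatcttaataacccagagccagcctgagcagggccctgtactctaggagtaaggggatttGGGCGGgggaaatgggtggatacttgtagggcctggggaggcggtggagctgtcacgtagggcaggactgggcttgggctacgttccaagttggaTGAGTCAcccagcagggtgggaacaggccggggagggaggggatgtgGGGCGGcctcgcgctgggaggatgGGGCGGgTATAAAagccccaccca
S100a11 (chr3:93520246-93520495, + strand): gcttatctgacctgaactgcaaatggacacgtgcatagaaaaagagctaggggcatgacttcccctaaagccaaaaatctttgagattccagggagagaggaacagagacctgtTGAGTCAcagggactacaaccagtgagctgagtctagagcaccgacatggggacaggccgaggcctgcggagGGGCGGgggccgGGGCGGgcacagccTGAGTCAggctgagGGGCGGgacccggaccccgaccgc
Anxa4 (chr6:86793585-86793834, - strand): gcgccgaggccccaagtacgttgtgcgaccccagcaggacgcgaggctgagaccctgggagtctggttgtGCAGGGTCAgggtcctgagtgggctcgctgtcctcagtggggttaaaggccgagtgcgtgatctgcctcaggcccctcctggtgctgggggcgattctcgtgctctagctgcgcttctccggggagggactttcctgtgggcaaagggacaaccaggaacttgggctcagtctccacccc

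The windows differed among the members. That of Anxa2 held a TATA box 17 to 12 bases before the start, an AP-1 site 95 to 89 bases before it and 3 GC boxes. That of S100a11 held 2 AP-1 sites, at 136 to 130 and 38 to 32 bases, and 3 GC boxes. The printed Anxa4 window held the antioxidant response element core on the reverse strand, 180 to 172 bases before the start, and none of the other motifs. Among the windows not printed, 1 Anxa7 window held 4 GC boxes and the other held 1. That of Anxa1 held a TATA box 32 to 27 bases before the start and that of S100a6 a CCAAT box. The second Anxa4 window and that of Anxa5 held none of the 5 motifs. The AP-1 site occurred in 2 of the 9 member windows and in 6.75% of all 32851 windows, and the antioxidant response element core in 1 of 9 and 10.2%. For the GC box the values were 4 of 9 and 32.7%, for the TATA box 2 of 9 and 12.4%, and for the CCAAT box 1 of 9 and 33.8%. The 2 Anxa7 windows overlap and share a GC box, which is counted in both. No motif was common to the windows of the members that rose and have an entry, and a match describes letters, not binding. CG dinucleotides numbered 16 in the richer Anxa7 window, 13 in the printed Anxa4 window and in that of Anxa5, 11 in S100a11 and 9 in Anxa2. They numbered 3 in S100a6 and 2 in Anxa1, in the second Anxa4 window and in the other Anxa7 window. The median over all windows was 6 (quartiles 2 and 16).

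In untreated cells the members formed an abundant set and a moderate set. S100a11 ranked 17 among the 11727 genes tested, S100a6 ranked 47 and S100a10 ranked 88. Anxa2, Anxa1 and Anxa5 followed at ranks 129, 147 and 153. The other 4 annexins were much lower, with Anxa6 at rank 1615, Anxa3 at 1655, Anxa7 at 2218 and Anxa4 at 3611. In Ctrl, the library ranges of neighbours in this order overlapped for Anxa2 and Anxa1, for Anxa1 and Anxa5, and for Anxa6 and Anxa3, and were separate for all other neighbours. The order was the same in Ep1 and Ep2 except that Anxa1 stood above Anxa2 in Ep1, where their ranges overlapped. In Ep2 the ranges of Anxa6 and Anxa3 no longer overlapped. Every member had at least 1271 fragments in every library, so the filter on low values did not decide which members were tested.

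The low dose left the 10 genes close to their untreated levels. In Ep1 against Ctrl, 0 members were called higher and 0 lower in the limma model fitted across all tested genes (a call is a Benjamini-Hochberg adjusted p below 0.05), where 6.32% of all genes were called higher and 4.97% lower. Only Anxa2 had an unadjusted p below 0.05, and it was called lower when the fragments were modelled with voom. The median log2 difference of the members was -0.00034, and that of all genes was -0.0093, on the log2(FPKM + 1) scale used for every log2 difference here. Of the 10 log2 differences, 5 were positive, and their range ran from -0.12 to 0.06.

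The high dose raised most of the annexins. In Ep2 against Ctrl, 6 of the 10 members were called higher and 0 lower, while 23.9% of all tested genes were called higher and 29.3% lower. Of the 6, all were annexins (Anxa2 to Anxa7), and 0 of the 3 S100 genes were called, although with median centring S100a10 and S100a11 were also called higher, and S100a10 had an unadjusted p below 0.05 and was called with voom. All 10 log2 differences were positive, with a median of 0.18 against -0.029 over all genes. The 7 annexins had a median of 0.38 and the 3 S100 genes a median of 0.085. In 7 members every Ep2 library lay above every Ctrl library: the 6 called annexins and S100a10. The share of all tested genes separated in this way was not counted, so this number has no background beside it. With the fold threshold of the study's own analysis, a log2 change above 0.6, Anxa6 and Anxa3 passed, Anxa3 narrowly at 0.61, and 3.3% of all genes passed upwards. Anxa3 was under that threshold without Ctrl replicate 1 (0.56) and without Ep2 replicate 3 (0.59). In such bulk values, more RNA of a gene per cell and a larger share of cells that express it cannot be told apart.

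Most annexins were also higher at the high than at the low dose, in a comparison that shares the Ep2 libraries with the previous one. In Ep2 against Ep1, 7 members were called higher and 0 lower, beside 18.8% of all genes called higher and 25.2% lower. The 7 were Anxa2 to Anxa7 and S100a6. The median log2 difference was 0.26 over the members and -0.015 over all genes. In 9 members all Ep2 libraries lay above all Ep1 libraries, and the exception was Anxa1. Here too the share over all tested genes was not counted. Anxa6 and Anxa3 again passed the log2 threshold of 0.6, which 1.94% of all genes passed upwards.

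**Figure D1:**
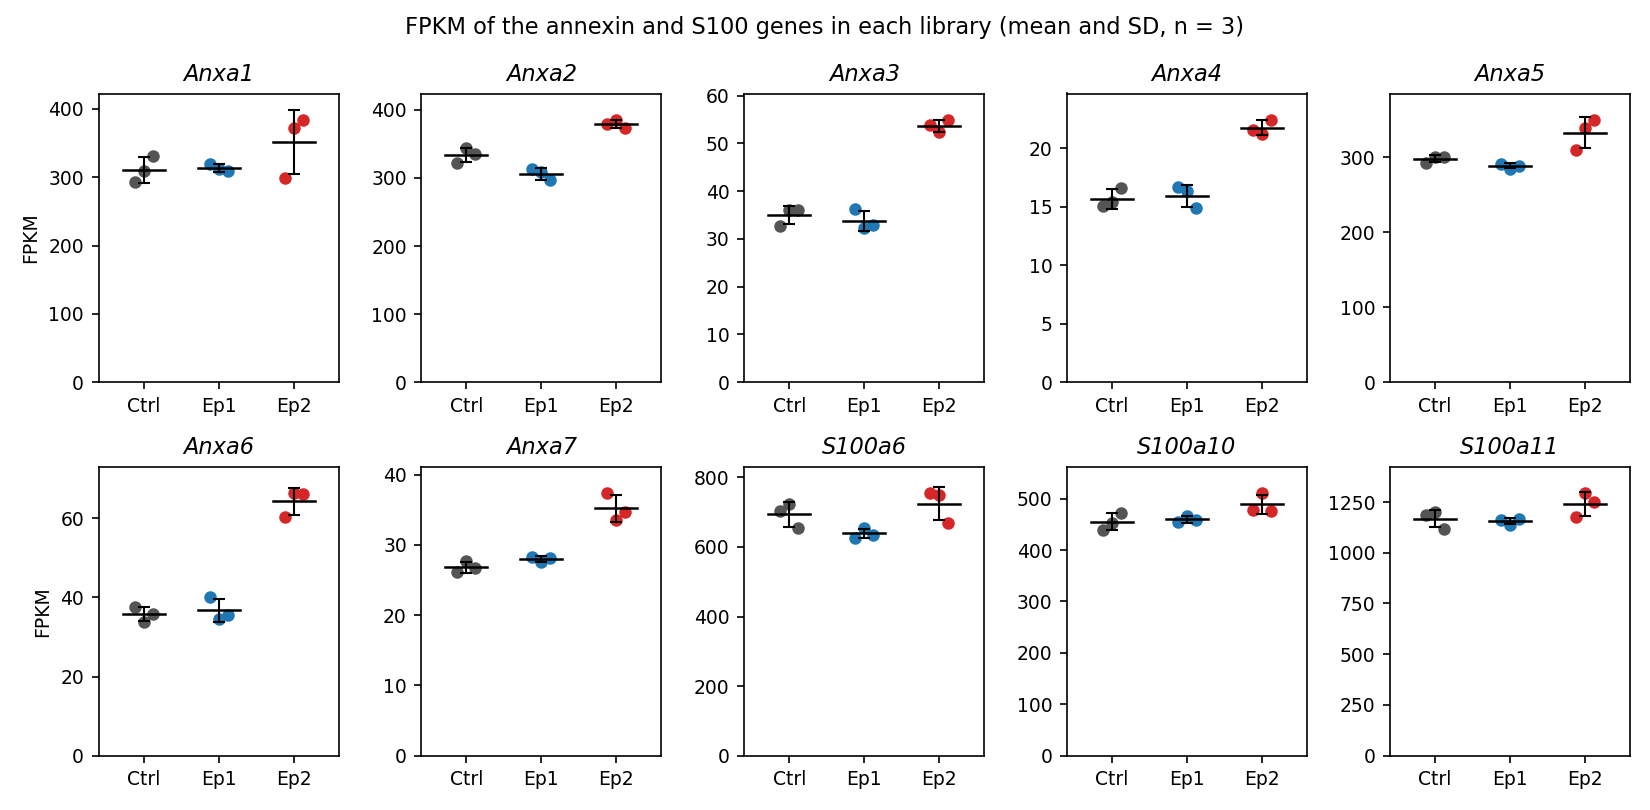
FPKM of each of the 10 genes in the 9 libraries, with 1 panel a gene and a linear axis from 0. Points are libraries, horizontal bars are group means and error bars are SD (n = 3). Ep2 libraries stand above the rest for Anxa3, Anxa4, Anxa6 and Anxa7 and, by a smaller relative margin, for Anxa2, Anxa5 and S100a10. For Anxa1 the lowest Ep2 library, at 298.1 FPKM, lies within the Ctrl range.

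Anxa6, which has a doubled annexin core and binds membranes and the actin cortex during repair, showed the greatest rise among the members. Its level was 37.6, 33.9 and 35.9 FPKM in Ctrl, 40.0, 34.6 and 35.6 FPKM in Ep1, and 60.4, 66.3 and 66.2 FPKM in Ep2. All Ep2 libraries were far above the others, and Ctrl and Ep1 overlapped. The means were 35.8 ± 1.85, 36.7 ± 2.88 and 64.3 ± 3.41 FPKM (SD, n = 3), an Ep2 to Ctrl ratio of 1.80. The log2 difference was 0.83 (SE 0.065, adjusted p = 1.36e-05) for Ep2 against Ctrl and 0.79 (adjusted p = 2.57e-05) for Ep2 against Ep1.

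Anxa3, linked to endothelial growth and migration, followed. It stood at 32.8, 36.1 and 36.0 FPKM in Ctrl, 36.2, 32.3 and 33.0 FPKM in Ep1, and 53.8, 52.4 and 55.0 FPKM in Ep2. The Ep2 libraries were tightly grouped and separate from all others. The mean rose from 35.0 ± 1.88 in Ctrl to 53.7 ± 1.29 FPKM in Ep2 (SD, n = 3), a ratio of 1.54 and a log2 difference of 0.61 (SE 0.055, adjusted p = 2.84e-05). Against Ep1, the log2 difference was 0.65 (adjusted p = 3.02e-05).

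Anxa4, an annexin that bends the free edges of membranes, had the lowest level of the 10 genes. The Ctrl libraries gave 15.0, 15.4 and 16.6 FPKM, the Ep1 libraries 16.6, 16.3 and 14.8 FPKM, and the Ep2 libraries 21.6, 21.2 and 22.4 FPKM. The Ep2 values again did not overlap with the rest, at a ratio of 1.39 to Ctrl. The log2 difference was 0.45 (SE 0.056, adjusted p = 0.000149) against Ctrl and 0.43 (adjusted p = 0.00031) against Ep1.

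Anxa7, first described as synexin for its role in the fusion of secretory granules and a partner of the ESCRT protein ALG-2 in repair, gave 26.1, 27.7 and 26.8 FPKM in Ctrl. Ep1 libraries held 28.3, 27.5 and 28.1 FPKM, and Ep2 libraries 37.3, 33.6 and 34.7 FPKM. Ep1 overlapped with Ctrl, and Ep2 was above both. The ratio of the Ep2 to the Ctrl mean was 1.31, with a log2 difference of 0.38 (SE 0.047, adjusted p = 0.000146), and the log2 difference from Ep1 was 0.32 (adjusted p = 0.000567). Together Anxa3, Anxa4, Anxa6 and Anxa7 reached 113 ± 1.93 FPKM in untreated cells, 114 ± 5.78 FPKM after the low dose and 175 ± 2.89 FPKM after the high dose (SD, n = 3).

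The 3 abundant annexins moved by less. Anxa2, which pairs with S100a10 in a complex that tethers membranes and binds plasminogen at the endothelial surface, gave 321.9, 343.5 and 335.6 FPKM in Ctrl, 313.8, 309.0 and 296.7 FPKM in Ep1, and 379.8, 385.5 and 374.1 FPKM in Ep2. All Ep1 libraries were below, and all Ep2 libraries above, those of Ctrl. The log2 difference of Ep1 from Ctrl was -0.12 (95% confidence interval -0.21 to -0.03, adjusted p = 0.0726) and did not pass. That of Ep2 from Ctrl was 0.19 (SE 0.039, adjusted p = 0.00301) and that of Ep2 from Ep1 was 0.31 (adjusted p = 0.000256), both of which passed. The Ep2 to Ctrl ratio was 1.14.

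Anxa5, a phosphatidylserine-binding annexin that assembles into lattices on torn membrane edges, had a similar shape. It was at 292.2, 300.6 and 300.2 FPKM in Ctrl, 291.4, 284.6 and 288.7 FPKM in Ep1, and 309.6, 338.3 and 349.7 FPKM in Ep2. Ep1 libraries lay just below the Ctrl range, and Ep2 libraries above it. The log2 difference was -0.05 (adjusted p = 0.546) for Ep1 against Ctrl, 0.16 (SE 0.047, adjusted p = 0.0175) for Ep2 against Ctrl and 0.20 (adjusted p = 0.00637) for Ep2 against Ep1. The call in Ep2 against Ctrl was lost without Ctrl replicate 1 (adjusted p = 0.0616) and without Ep2 replicate 2 (adjusted p = 0.0589).

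Anxa1, a glucocorticoid-induced annexin known for resolving inflammation and a partner of S100a11, was the annexin not called at either dose. Its Ctrl libraries held 292.3, 309.1 and 330.3 FPKM and its Ep1 libraries 319.5, 312.6 and 308.4 FPKM, which overlapped. The Ep2 libraries were at 298.1, 372.0 and 384.1 FPKM, so that replicate 1 fell inside the Ctrl range and the other replicates lay above it. The log2 difference of Ep2 from Ctrl was 0.17 (95% confidence interval -0.03 to 0.37, adjusted p = 0.132). Without Ep2 replicate 1 it was 0.28 (adjusted p = 0.00177). With all libraries and a gene length correction it was 0.26 (adjusted p = 0.0402), so either change alone gave a call. Against Ep1 it was 0.16 (adjusted p = 0.182), and 0.27 (adjusted p = 0.00329) without Ep2 replicate 1.

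**Figure D2:**
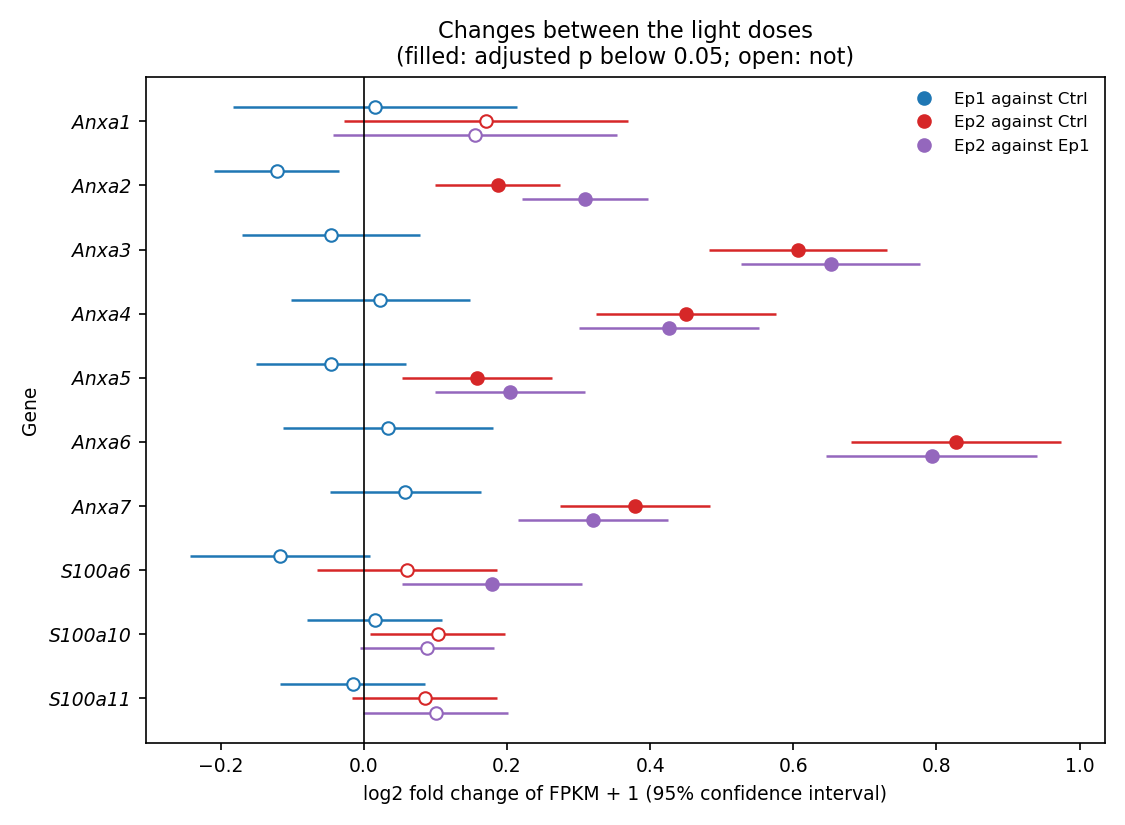
log2 fold change of each gene in the 3 comparisons, on the log2(FPKM + 1) scale, with 95% confidence intervals from the limma model as bars. Filled points passed an adjusted p of 0.05 and open points did not. All Ep1 against Ctrl points are open, and the Ep2 points of Anxa6 and Anxa3 lie farthest to the right, at 0.83 and 0.61 against Ctrl.

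The S100 genes had the highest levels and, in Ep2 against Ctrl, the smallest relative differences of the 10 members. S100a11, which binds Anxa1 and Anxa2 and takes part in membrane resealing, stood at 1185, 1201 and 1119 FPKM in Ctrl, 1162, 1138 and 1166 FPKM in Ep1, and 1175, 1293 and 1251 FPKM in Ep2. The Ctrl libraries overlapped with both treated groups, while all Ep2 libraries lay above those of Ep1. The log2 difference of Ep2 from Ctrl was 0.08 (95% confidence interval -0.02 to 0.19, adjusted p = 0.143), and without Ep2 replicate 1 it was 0.12 (adjusted p = 0.0304). Against Ep1 it was 0.10 (adjusted p = 0.0996), and 0.14 without Ep2 replicate 1 (adjusted p = 0.023).

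S100a10, also named p11, the S100 protein that holds Anxa2 in a tetramer and needs no calcium to do so, gave 439.2, 453.2 and 471.9 FPKM in Ctrl and 453.5, 465.4 and 459.1 FPKM in Ep1. Its Ep2 libraries, at 478.7, 510.4 and 476.7 FPKM, all lay above Ctrl and Ep1, by a small margin. The log2 difference of Ep2 from Ctrl was 0.10 (SE 0.042, 95% confidence interval 0.0092 to 0.197, adjusted p = 0.0623). It passed with median centring (adjusted p = 0.0122), with a gene length correction (0.00177) and with voom (0.0238), as well as without Ctrl replicate 3 (0.0402) and without Ep2 replicate 3 (0.0496).

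S100a6, or calcyclin, a partner of several annexins and of the ubiquitin ligase adaptor Cacybp, gave 703.0, 724.2 and 654.3 FPKM in Ctrl, 626.8, 654.5 and 635.4 FPKM in Ep1, and 754.5, 748.1 and 669.7 FPKM in Ep2. The Ep2 range overlapped with Ctrl and was above Ep1. The log2 difference was 0.06 (95% confidence interval -0.07 to 0.19, adjusted p = 0.387) for Ep2 against Ctrl and 0.18 (SE 0.056, adjusted p = 0.0275) for Ep2 against Ep1. The latter call was lost without Ep1 replicate 1 or 3 and without Ep2 replicate 1 or 2, with an adjusted p of up to 0.0913.

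Relative and absolute differences were ordered differently. In FPKM, S100a11 gained most from Ctrl to Ep2 (71.2), ahead of Anxa2 (46.2), Anxa1 (40.8), Anxa5 (34.9), S100a10 (33.8), S100a6 (30.3), Anxa6 (28.5), Anxa3 (18.8), Anxa7 (8.38) and Anxa4 (6.08), although neither Anxa1 nor any of the S100 genes passed the test. The 7 annexins summed to 1055 ± 33.2 FPKM in untreated cells, 1023 ± 20.9 after the low dose and 1239 ± 68.1 after the high dose (SD, n = 3). The 3 S100 genes summed to 2317 ± 67.1, 2254 ± 9.46 and 2452 ± 86.3 FPKM. As a share of all FPKM, the annexins made up 0.326%, 0.314% and 0.401%, and the S100 genes 0.716%, 0.692% and 0.793%.

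**Figure D3:**
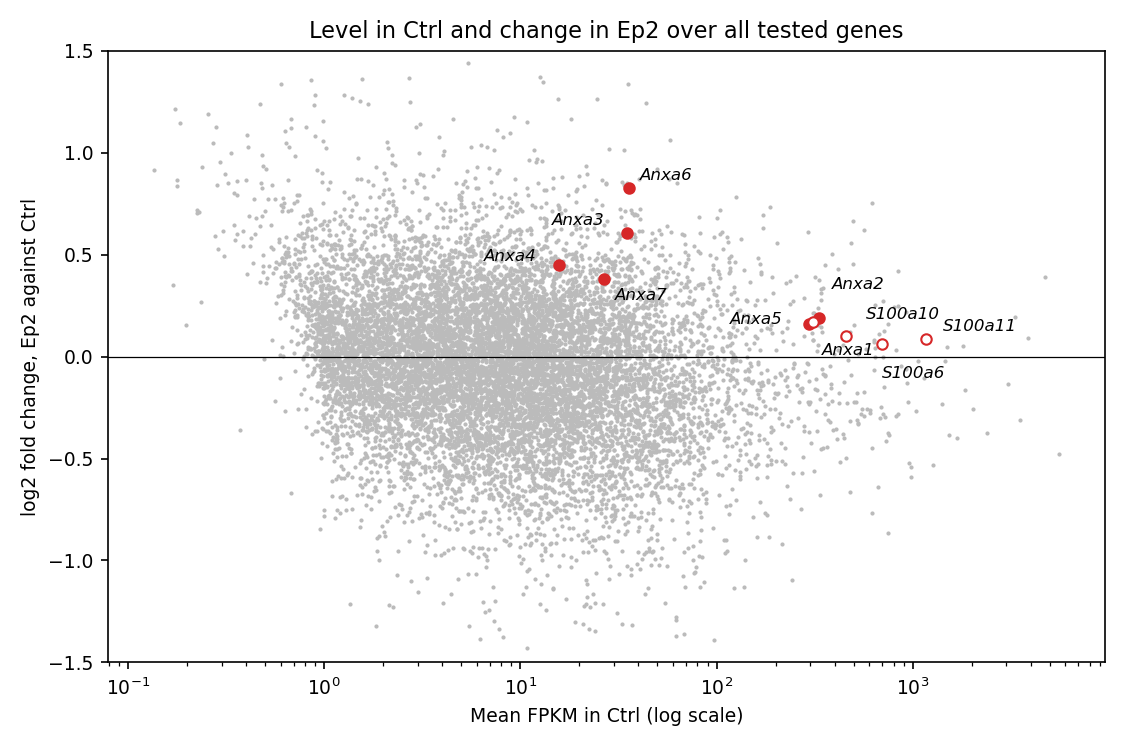
log2 fold change in Ep2 against Ctrl for all 11727 tested genes, plotted against their mean FPKM in Ctrl on a log axis. Grey points are all genes and red symbols the members, filled where the adjusted p was below 0.05, and 10 genes lie outside the vertical range of 1.5. The members with the higher levels lie close to 0 and Anxa3, Anxa4, Anxa6 and Anxa7, with moderate levels, lie between 0.38 and 0.83.

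The balance of Anxa2 and S100a10 was examined because the proteins form a tetramer of equal parts. The ratio of Anxa2 to S100a10 FPKM, which is a ratio of levels per length of gene, was 0.733, 0.758 and 0.711 in Ctrl, 0.692, 0.664 and 0.646 in Ep1, and 0.794, 0.755 and 0.785 in Ep2. The Ep1 ratios were lower than all others, and the Ep2 range overlapped with that of Ctrl. The log2 difference was -0.14 for Ep1 against Ctrl (exact permutation test, two-sided p = 0.1, adjusted over 3 comparisons 0.15), 0.08 for Ep2 against Ctrl (exact p = 0.2, adjusted 0.2) and 0.22 for Ep2 against Ep1 (exact p = 0.1, adjusted 0.15). With 3 libraries against 3 there are 20 relabellings and the test cannot give a p below 0.1.

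**Figure D4:**
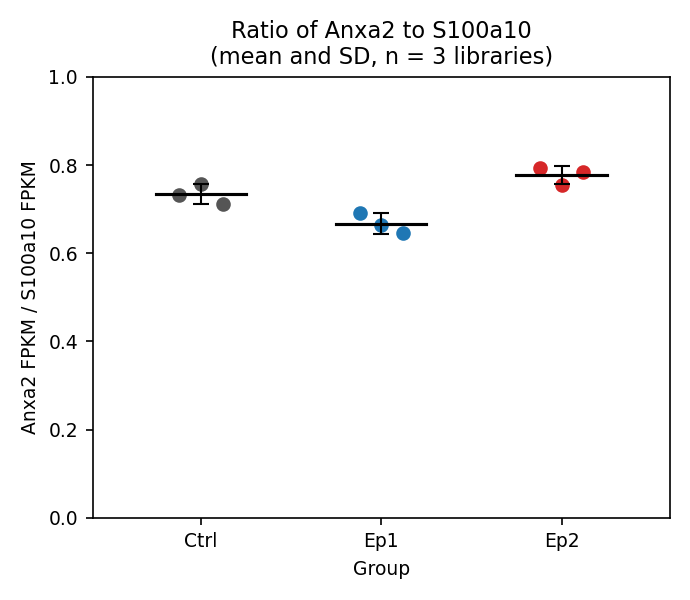
Ratio of Anxa2 FPKM to S100a10 FPKM in each library by group, with the mean and SD (n = 3) and an axis from 0. The mean was 0.734 in Ctrl, 0.667 in Ep1 and 0.778 in Ep2, and no Ep1 point reaches those of the other groups.

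The genes whose profiles lay nearest to the 3 most changed annexins were found by the root mean square difference, over the 9 libraries, of log2 values set to the Ctrl mean, among 5023 genes with a mean of at least 10 FPKM. Nearest to Anxa6 was Klra4 (0.0605), at 19.3 FPKM in Ctrl and 34.7 in Ep2, followed by Cd300lb (0.0738) and Rnf128 (0.0823). Nearest to Anxa3 were Angpt2 (0.0435), the gene of the vessel-destabilizing ligand angiopoietin-2, Myadm (0.0558) and Gabarap (0.0640), an autophagy gene. The mean of Angpt2 was 9.94 FPKM in untreated cells, 9.60 in Ep1 and 15.3 in Ep2. Nearest to Anxa4 were Esd (0.0412), Dst (0.0573) and Htra1 (0.0575). These likenesses are a description of the same 9 libraries that fall into 3 groups.

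Of 5 other annexins listed, 3 passed the filter, and 0 of the 3 were called in Ep2 against Ctrl, either by limma or with voom, or had an unadjusted p below 0.05. Anxa11, the most abundant, lay between 10.7 and 15.5 FPKM over all libraries and had a log2 difference of 0.10 (adjusted p = 0.479). Anxa8 was at 4.67 to 5.85 FPKM in Ctrl, 3.98 to 4.41 in Ep1 and 5.29 to 5.46 in Ep2. It was lower in Ep1 than in Ctrl (log2 difference -0.30, adjusted p = 0.0397), a call lost without Ctrl replicate 1 or 2, any Ep1 library or Ep2 replicate 2, with an adjusted p of up to 0.151, and its log2 difference of Ep2 from Ctrl was -0.01 (adjusted p = 0.923). Like 7 of the members, Anxa8 was called higher in Ep2 than in Ep1 (0.29, adjusted p = 0.0138), a call lost without Ep1 replicate 3 (adjusted p = 0.055). Anxa10 was listed at 0 throughout. Whether the changes of these genes differed from those of the members was not tested.

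Of 13 other S100 genes, 3 passed the filter, and they went different ways. S100a1, known from muscle and heart as a calcium sensor, lay at 33.9 to 39.1 FPKM in Ctrl, 31.5 to 32.6 in Ep1 and 41.7 to 44.4 in Ep2. It was lower in Ep1 (log2 difference -0.20, adjusted p = 0.0471, a call lost without Ctrl replicate 1 or 3, any Ep1 library or Ep2 replicate 2 or 3, with an adjusted p of up to 0.147) and higher in Ep2 (0.21, adjusted p = 0.0121). S100a4, a metastasis-associated S100 protein that binds nonmuscle myosin, fell from 7.56 to 9.80 FPKM in Ctrl to 4.85 to 5.05 in Ep2, a log2 difference of -0.66 (adjusted p = 0.00415). S100a13, the most abundant of them, differed between the doses (0.25, adjusted p = 0.0338), a call lost without Ep1 replicate 1 or 3 and without Ep2 replicate 1 or 2, with an adjusted p of up to 0.109. The leukocyte genes S100a8 and S100a9 did not exceed 0.233 FPKM.

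Partners and other repair genes were taken from lists of known function. With the other annexins and S100 genes, 7 lists held 68 genes, of which 50 were tested. In Ep2 against Ctrl, 24 were called higher and 8 lower, with a median log2 difference of 0.15, beside 23.9% and 29.3% of all genes. In Ep1 against Ctrl, 2 were called higher and 4 lower, beside 6.32% and 4.97% of all genes. In Ep2 against Ep1, 22 were called higher and 3 lower, beside 18.8% and 25.2%.

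Partners of the annexins and S100 proteins moved in both directions. Of 8 tested, 4 were called higher in Ep2 against Ctrl (Plaur, Plat, Plau and Ahnak) and 2 lower (Cacybp and Pla2g4a). Of all tested genes, 23.9% were called higher and 29.3% lower. Plaur, the urokinase receptor, was already higher in Ep1, from 57.6 ± 1.05 FPKM in Ctrl to 77.3 ± 2.63 (SD, n = 3; log2 difference 0.42, adjusted p = 0.00464), and stood at 81.8 ± 3.95 in Ep2 (0.50, adjusted p = 2.78e-05). Ahnak, a giant scaffold that binds Anxa2 and S100a10 under the membrane, rose from 33.4 ± 2.69 to 40.7 ± 2.50 FPKM (0.28, adjusted p = 0.0102), but not with a gene length correction (0.15, adjusted p = 0.0628). Cacybp, the S100a6 partner, fell from 68.0 ± 1.54 to 50.5 ± 3.21 FPKM (-0.42, adjusted p = 0.000695). The formyl peptide receptor genes Fpr1, Fpr2 and Fpr3, through which Anxa1 acts on cells, did not exceed 0.409 FPKM, and plasminogen itself (Plg) was listed at 0.

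Of the 7 tested genes of calcium-triggered patch repair, 5 were called higher in Ep2 against Ctrl and 0 lower (median 0.23): the calpains Capn1 and Capn2, the caveolar genes Cav1 and Cavin1, and Dysf, which encodes the repair protein dysferlin. Capn2 rose from 45.7 ± 0.605 to 54.6 ± 0.271 FPKM (0.25, adjusted p = 0.0014). In Ep1, 0 of the 7 were called by limma or with voom, and 1, Capns1, had an unadjusted p below 0.05 (0.0341). Of 16 tested genes of the ESCRT machinery, which pinches off damaged membrane, 7 were called higher in Ep2 against Ctrl and 1 lower (median 0.15). The shares of all genes in Ep2 against Ctrl, to set beside either list, were 23.9% higher and 29.3% lower. Pdcd6ip, whose product ALIX recruits ESCRT-III to lesions, went from 32.3 ± 0.866 to 49.1 ± 1.76 FPKM (0.59, adjusted p = 2.22e-05), while Chmp6 fell from 33.0 ± 1.80 to 27.5 ± 2.06 (-0.25, adjusted p = 0.00587).

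Lysosomal exocytosis genes gave 3 higher and 2 lower of 6 in Ep2 against Ctrl (median 0.21), beside 23.9% and 29.3% of all genes. Vamp7, the lysosomal fusion protein, rose from 9.56 ± 1.02 to 14.3 ± 1.03 FPKM (0.54, adjusted p = 0.000619), and Smpd1, the acid sphingomyelinase released during repair, from 8.30 ± 0.774 to 11.1 ± 0.549 (0.38, adjusted p = 0.000879). Stx4a, a plasma membrane syntaxin, went from 23.2 ± 1.23 to 20.6 ± 0.452 FPKM (-0.16, adjusted p = 0.0233), a call lost without Ctrl replicate 2 (adjusted p = 0.0944) and without Ep2 replicate 3 (0.0597), and in 4 of 8 alternative settings (-0.07 with a gene length correction). It was also called lower in Ep1 (-0.19, adjusted p = 0.0449), a call lost in 3 of 8 settings and without any Ctrl library, any Ep1 library or Ep2 replicate 2 (adjusted p of up to 0.165).

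The genes listed for scrambling and flipping phosphatidylserine, the lipid that annexins bind, gave 4 higher and 2 lower of 7 in Ep2 against Ctrl (median 0.17). The shares of all genes were 23.9% and 29.3%. Tmem30a, the shared subunit of the flippases that keep phosphatidylserine inside, rose from 20.5 ± 0.625 to 30.2 ± 1.12 FPKM (0.54, adjusted p = 1.77e-05). The scramblase genes were divided. Ano6 was called higher in Ep2 than in Ctrl (0.23, adjusted p = 0.00504) and Xkr8 lower (-0.31, adjusted p = 0.00613). Plscr1 was higher at both doses, at 49.1 ± 0.664 FPKM in Ctrl, 56.3 ± 1.35 in Ep1 (0.19, adjusted p = 0.0142) and 55.5 ± 1.09 in Ep2 (0.17, adjusted p = 0.00304). Plscr3 was lower at both, at 14.4 ± 0.512, 12.4 ± 0.524 (-0.21, adjusted p = 0.0313) and 11.5 ± 0.417 FPKM (-0.30, adjusted p = 0.000702). The Ep1 call of Plscr1 was lost without Ctrl replicate 1 or 2 and without Ep1 replicate 1 or 3 (adjusted p of up to 0.0592), and that of Plscr3 without Ctrl replicate 1 or 2 and without any of the Ep1 libraries (up to 0.114).

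**Figure D5:**
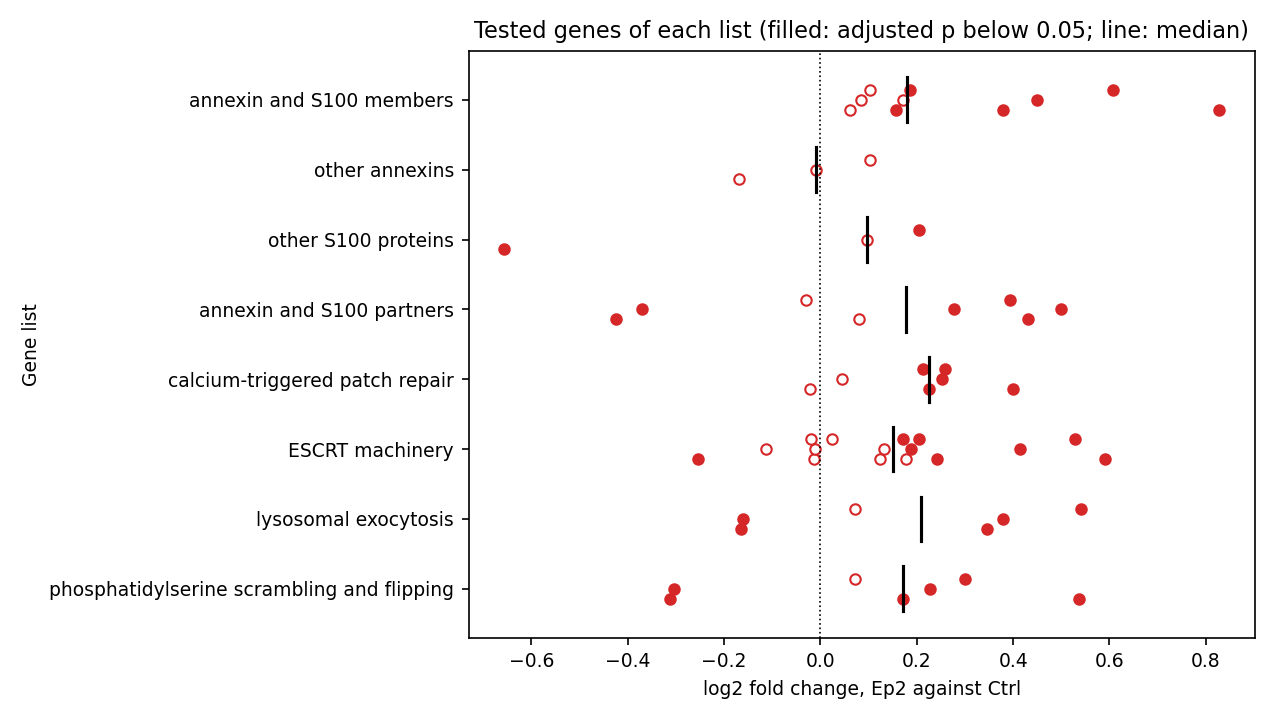
log2 fold change in Ep2 against Ctrl of the tested genes of each list, where a point is a gene, filled if its adjusted p was below 0.05, and the vertical line is the list's median. The members' median is 0.18 and all their points lie right of 0, whereas the other annexins have no filled point and the other S100 genes have filled points on both sides.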

How the data were processed

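RNA was extracted with Trizol from B.END3 monolayers, and libraries were sequenced by the authors as paired-end Illumina reads and aligned to the mouse genome. The deposited values are FPKM for each gene and library, already normalized by the authors for gene length and library size, and the 9 single-library tables equal the joint table. The tool that counted fragments was not given in the sources used here. The study's methods name GRCm39, the submitters' processing notes name mm8 and Bowtie 0.12.2, and the listed coordinates overlap GRCm38 RefSeq positions for 99.9% of 36526 genes compared (12.4% for GRCm39), so coordinates are given as GRCm38. The growth notes call the line rat, whereas the organism is given as mouse and the genes are mouse genes. A further column holds gene length in bases.

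FPKM times gene length gave whole fragments (100% of values under 1000 fragments within 0.05 of a whole number), which set the depth per library. Counting error is small for the members, and the spread between libraries sets their precision. Genes with at least 1 FPKM in at least 3 libraries (11727) were fitted on log2(FPKM + 1), which slightly understates changes of low genes, in 1 limma 3.58.1 model (R 4.3.3) of all 9 libraries with trend and robust moderation, no covariate, and Benjamini-Hochberg adjustment in each comparison. The ratio of Anxa2 to S100a10 was tested with a two-sided exact permutation test (scipy 1.17.1). Alternatives were median centring, no filter, a filter at 5 FPKM, a pseudocount of 0.1, a gene length correction, a replicate block, only the groups compared, voom on recovered fragments, and leaving out each library.

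The members, the gene lists and the tests were chosen with earlier results of these data known. All 10 members are named, as are other annexins and S100 genes that were called in any comparison or most abundant, the gene with the smallest adjusted p in each direction of each other list, and the 3 genes nearest in profile to each of the 3 members with the greatest change. Plat, Plau, Pla2g4a, Capn1, Capns1, Cav1, Cavin1, Dysf, Ano6 and Xkr8, the marker genes, and the genes listed at or near 0 were named after their values were seen. Promoter sequences came from RefSeq (GRCm38.p6).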

Additional observations from a re-analysis of the deposited data

Results flagged for a closer look

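For 3 genes every Ep1 library lay below every Ctrl library while every Ep2 library lay above. The genes were picked by this pattern, which itself places every Ep2 library above every Ep1 library. The difference between the doses, taken from the limma model as Ep2 against Ep1, is therefore given as a description. Its adjusted p-values come from the same libraries and are no separate evidence. For Anxa2 this difference was 0.31 on the log2(FPKM + 1) scale (adjusted p = 0.000256), made of -0.12 at 10 J/cm2 and 0.19 at 20 J/cm2. For Anxa5 it was 0.20 (adjusted p = 0.00637), made of -0.05 and 0.16. For S100a1, which is outside the 10 members, it was 0.41 (adjusted p = 0.000406), made of -0.20 and 0.21. Of the Ep1 differences only that of S100a1 was called (adjusted p = 0.0471), and it was lost in 4 of 8 alternative settings. Both doses share the Ctrl libraries, and the share of all tested genes with this pattern was not counted. Groups of 3 libraries are too small for the test of single outlying libraries.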

How the results depend on the processing

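Of 510 values of the members' log2 differences under the alternatives, 475 kept their direction and their side of the threshold, 18 gained a call, 7 lost one and 10 changed sign. The members called higher in Ep2 against Ctrl numbered 6, between 6 and 9 over the 8 alternatives and between 5 and 8 when a library was left out, and in Ep2 against Ep1 7, between 6 and 9 and between 6 and 8. Members called lower in Ep1 against Ctrl numbered 0, and 1 with voom (Anxa2, adjusted p = 0.0215). All sign changes were in uncalled values of Ep1 against Ctrl. With voom, Anxa1 gave -0.0015 and S100a10 gave -0.0020, and with a gene length correction S100a11 gave 0.032. When a library was left out, the values ranged from -0.0276 to 0.0603 for Anxa1, from -0.0071 to 0.0703 for Anxa4, from -0.0271 to 0.0753 for Anxa6, from -0.0098 to 0.0419 for S100a10 and from -0.0463 to 0.0046 for S100a11. The cause was not tested. Besides the calls given with each gene, S100a10 passed in Ep2 against Ep1 with median centring, a gene length correction and voom (adjusted p = 0.0181, 0.0124 and 0.0267), S100a11 with median centring and voom (0.0189 and 0.017), S100a11 in Ep2 against Ctrl with median centring (0.033), S100a6 in Ep2 against Ctrl with a gene length correction (0.0219), and S100a6 lost its call in Ep2 against Ep1 without the filter (0.0667). The listed genes called lower in Ep1 against Ctrl fell from 4 to 1 with a gene length correction and to 1 with the replicate block. Without the filter all 4 of these calls were lost: Anxa8 (adjusted p = 0.114), S100a1 (0.125), Stx4a (0.117) and Plscr3 (0.0825).

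Over all genes, the Ep1 counts were the least stable: 741 higher (242 to 1153 over the alternatives) and 583 lower (154 to 1068). Without a library they ran from 111 (Ep1 replicate 3) to 1183 (Ep2 replicate 1) higher and from 78 (Ctrl replicate 2) to 1000 (Ep2 replicate 1) lower, so the Ep1 shares of all genes set beside the members are uncertain. Omitting Ctrl replicate 1 (237 and 155), Ctrl replicate 2 (115 and 78), Ep1 replicate 1 (217 and 161), Ep1 replicate 2 (461 and 381) or Ep1 replicate 3 (111 and 80) lowered both counts by over 1.5 times. Replicate numbers did not pair the libraries (correlations of deviations from -0.056 to 0.074 for equal numbers and from -0.108 to 0.153 for others), and with the replicate block 6 members were called higher in Ep2 against Ctrl and 7 in Ep2 against Ep1, while the Ep1 calls of S100a1, Stx4a and Plscr3 were lost (adjusted p = 0.0799, 0.0688 and 0.0546) and that of S100a13 in Ep2 against Ep1 (0.0612). The log2 difference of the Anxa2 to S100a10 ratio ranged, when a library was left out, from -0.164 to -0.114 for Ep1 against Ctrl, from 0.062 to 0.107 for Ep2 against Ctrl and from 0.198 to 0.248 for Ep2 against Ep1.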
